A study of Mus musculus with 11 samples.

Results

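The genes described here make cholesterol and fatty acids. They were named as 32 symbols: 16 enzymes of the sterol pathway, 5 regulators of lipid synthesis and 11 enzymes that build, lengthen, desaturate or activate fatty acids. A gene was represented by the probe set of the array that carries its symbol alone, the one with the highest mean where there were several. Of the 32 symbols 31 were found this way and all 31 were among the 16527 genes tested; Acsl3 was read only by a probe set shared with another gene and was left out.

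Amplified RNA of sorted green fluorescent cells was hybridised to 11 Affymetrix Mouse Gene 1.0 ST arrays. The cells were taken by microdissection from the dentate gyrus, where new granule neurons are still formed in the adult hippocampus. All mice were adults at postnatal day 35 and carried a GFP reporter, so there was no group without one. NesGFP (3 arrays) is a Nestin GFP transgenic, in which GFP marks cells that use the control sequence of Nestin, a filament protein found in stem cells of the nervous system. The line kiTbr2GFP (3 arrays) has GFP knocked in at Eomes, which encodes the progenitor transcription factor Tbr2, and in tgTbr2GFP (3 arrays) an Eomes BAC transgene carries it. Which cells use these reporters beyond the named gene's own cells is not given in the labels. PomcGFP (2 arrays) is a Pomc GFP transgenic, a reporter of newborn granule neurons. Whether different arrays of a line hold different animals is not stated, so p-values measure a spread between arrays that could be technical alone. In sorted but mixed cells, fewer cells of a type and less RNA per cell cannot be told apart.

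Brain cholesterol is made within the brain, because lipoproteins of the blood hardly cross its barrier, and in the adult much of it is made by astrocytes and by the oligodendrocytes that build myelin. Acetyl-CoA units are joined and reduced to mevalonate, which is turned into isoprenoids, squalene and lanosterol and then, in many steps, cholesterol. The transcription factor SREBP2, encoded by Srebf2, switches on these enzymes when membranes lack sterol; Scap escorts it from the endoplasmic reticulum to the Golgi, and Insig1 holds both back when sterol is plentiful. The related Srebf1 product acts on fatty acid genes, where Acly, Acaca and Fasn make palmitate, Elovl enzymes lengthen it and Scd and Fads enzymes add double bonds.

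Sterol control of such genes is known to act through short motifs in their promoters. RefSeq promoters (GRCm38.p6) were matched for 25 of the 31 genes, some with more than 1 start, which gave 32 promoters. In the 250 bases before the start, on both strands, the core of the sterol regulatory element, TCACNCCAC, stood in 3.12% of these promoters, which is that of Hmgcs1 alone, against 1.05% of all 32851 promoters of the table. The CCAAT box, which binds NF-Y, stood in 65.6% against 33.8%, and the Sp1 box GGGCGG in 68.8% against 32.7%. None of these motifs contains another. A match is a description of the letters and not a measured site, and was not tested. Below are the promoter with the sterol element, those of a transcription factor and a sterol sensor of the pathway, and that of Elovl6, the member whose level went against the others; capitals mark matches to any of the 3 motifs on either strand. They lie at chr13:119690101-119690350 for Hmgcs1, chr15:82147019-82147268 for Srebf2, chr5:28071162-28071411 for Insig1 and chr3:129532136-129532385 for Elovl6, all on the + strand.
Hmgcs1: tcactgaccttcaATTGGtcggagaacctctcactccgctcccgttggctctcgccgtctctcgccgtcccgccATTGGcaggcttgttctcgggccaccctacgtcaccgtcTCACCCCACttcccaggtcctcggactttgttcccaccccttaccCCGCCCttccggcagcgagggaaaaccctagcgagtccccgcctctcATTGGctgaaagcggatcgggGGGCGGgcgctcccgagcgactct
Srebf2: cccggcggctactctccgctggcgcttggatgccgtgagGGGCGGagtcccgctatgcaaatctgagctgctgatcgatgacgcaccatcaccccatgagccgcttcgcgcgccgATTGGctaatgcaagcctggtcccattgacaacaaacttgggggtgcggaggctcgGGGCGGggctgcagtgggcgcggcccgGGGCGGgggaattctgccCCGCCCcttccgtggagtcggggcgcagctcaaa
Insig1: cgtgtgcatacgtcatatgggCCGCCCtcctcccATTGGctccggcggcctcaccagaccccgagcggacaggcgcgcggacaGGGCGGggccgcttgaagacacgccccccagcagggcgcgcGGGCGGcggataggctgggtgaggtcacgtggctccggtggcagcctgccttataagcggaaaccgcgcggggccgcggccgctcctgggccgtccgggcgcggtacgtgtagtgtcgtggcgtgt
Elovl6: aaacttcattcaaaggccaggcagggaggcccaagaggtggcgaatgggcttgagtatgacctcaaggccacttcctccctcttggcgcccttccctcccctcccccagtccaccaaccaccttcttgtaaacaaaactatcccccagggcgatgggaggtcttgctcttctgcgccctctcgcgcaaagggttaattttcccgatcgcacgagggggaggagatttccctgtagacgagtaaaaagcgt
In Hmgcs1 the sterol element lies with 3 CCAAT boxes and 2 Sp1 boxes. Srebf2 holds 1 and 4 of these boxes and Insig1 1 and 3, while the Elovl6 window holds 0 of either. Elovl6 was not alone in this: Acaca, called in no comparison with NesGFP, had no match either. Mvk, also called in none of these, held both kinds of box. The printed promoters were picked by the role or the level of the gene, and a link between boxes and levels was not tested.

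On the arrays as a whole, medians lay between 7.005 and 7.149 in log2 units. NesGFP arrays stood apart from the other 8: across genes they correlated with arrays of other lines at r of 0.766 to 0.839, while r between arrays of 2 different lines among the other 3 was 0.933 to 0.973. Marker genes followed the labels in part. Eomes was at 9.93 to 10.07 on the kiTbr2GFP arrays, 9.83 to 10.39 on the tgTbr2GFP arrays, 8.52 to 9.23 on the NesGFP arrays and 7.35 and 7.68 on the PomcGFP arrays. The neuroblast gene Dcx lay between 10.76 and 11.36 on the 8 arrays of the other lines, while on the NesGFP arrays it was at 8.57, 9.15 and 8.62. Not all granule neuron genes went with it: of 10 tested, 6, 6 and 7 were called higher than in NesGFP in kiTbr2GFP, tgTbr2GFP and PomcGFP and 2, 2 and 1 lower, Ncam1 in all 3 lines and Calb1 in both Tbr2 lines. Of 8 intermediate progenitor genes 7, 7 and 2 were called higher and 0, 0 and 1 lower, and of 7 dividing cell genes 5, 5 and 2 were higher and 0, 0 and 2 lower. Over all genes 18.2%, 15.8% and 15.9% were called higher than in NesGFP and 27%, 25.8% and 24% lower.

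Across the 4 lines the lipid synthesis genes divided NesGFP from the rest. In kiTbr2GFP 28 of 31 genes were called lower than in NesGFP (27% of all genes were) and 1 higher (18.2% of all genes), in tgTbr2GFP 28 lower (25.8%) and 1 higher (15.8%), and in PomcGFP 28 lower (24%) and 1 higher (15.9%). Calls in either direction thus numbered 29 of 31 in each line, against 45.2% of all genes in kiTbr2GFP, 41.6% in tgTbr2GFP and 39.9% in PomcGFP. A call is an adjusted p under 0.05 in limma's moderated test with Benjamini-Hochberg adjustment over all genes tested. The median difference of the 31 genes was -1.30 for kiTbr2GFP, a level 2.46-fold higher in NesGFP, -1.23 for tgTbr2GFP (2.34-fold) and -1.17 for PomcGFP (2.25-fold), on the log2 scale; the medians of all genes were -0.01, -0.03 and 0.00498. Genes lower by more than 1 log2 unit and called numbered 23 in kiTbr2GFP (11.2% of all genes), 19 in tgTbr2GFP (9.83%) and 23 in PomcGFP (10.5%). All 3 comparisons share the NesGFP arrays, so their agreement is not independent.

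The arrays themselves show this split. In each of the 3 lines 29 genes had all arrays below all NesGFP arrays (29.7%, 28.4% and 30.9% of all genes in kiTbr2GFP, tgTbr2GFP and PomcGFP) and 1 had them all above (22%, 19.7% and 27.9%). The same 28 genes were called lower in all 3 lines, as 20.1% of all genes were. For 29 of the 31 genes all 3 NesGFP arrays lay above the other 8 arrays, which was so for 23.3% of all genes. The mean of the 31 log2 values was 9.34 to 9.44 on the NesGFP arrays, 7.96 to 8.20 on those of kiTbr2GFP, 7.998 to 8.35 on those of tgTbr2GFP and 8.08 and 8.22 in PomcGFP. In limma's F test over the 4 lines 29 of 31 genes passed (43.4% of all genes); Mvk (adjusted p = 0.207) and Acaca (adjusted p = 0.141) did not.

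**Figure D1:**
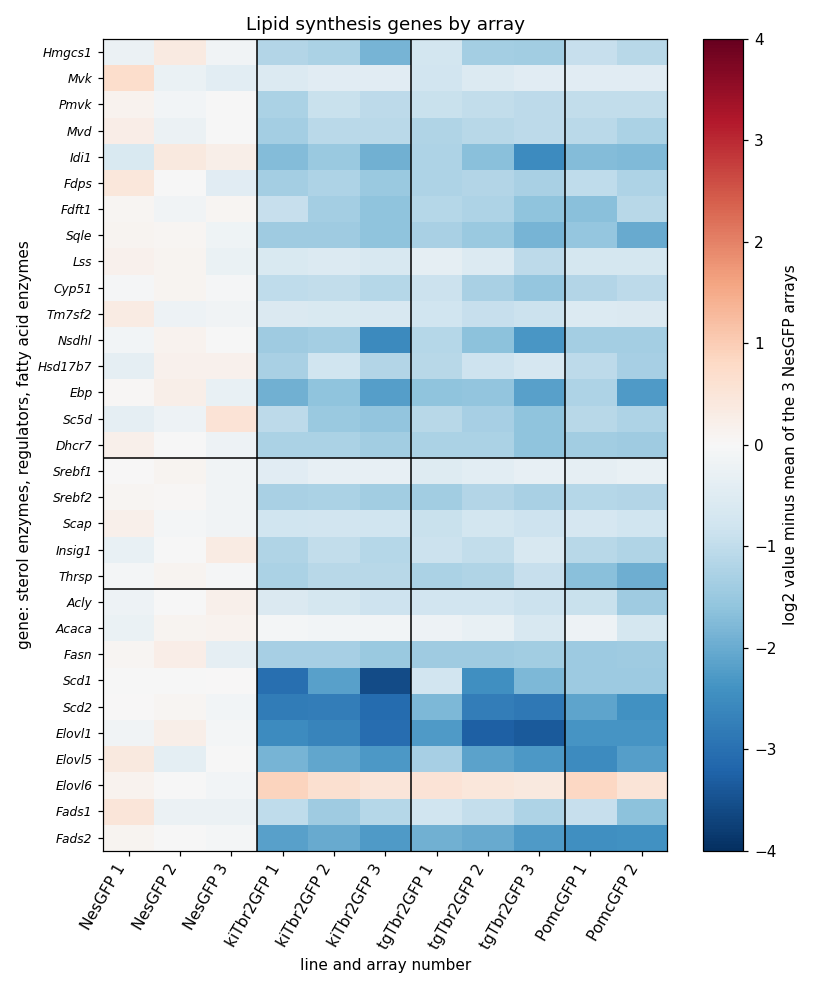
Colour gives the log2 value of each of the 31 genes (rows, grouped as sterol enzymes, regulators and fatty acid enzymes) on each of the 11 arrays (columns, by line), minus the gene's mean over the 3 NesGFP arrays. Blue, below NesGFP, fills nearly all rows in the 8 columns of the other lines, with Elovl6 the red row and Acaca, Srebf1 and Mvk among the palest.

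Enzymes from most steps of the sterol pathway were lower outside NesGFP. Differences are given in the order kiTbr2GFP, tgTbr2GFP and PomcGFP, each minus NesGFP, and values in the order of the array numbers. Of its 16 enzymes 15 were called lower in each of the 3 lines, beside 27%, 25.8% and 24% of all genes, and Mvk in none. The 16 differences ranged from -1.90 to -0.47 in kiTbr2GFP, from -1.81 to -0.59 in tgTbr2GFP and from -1.78 to -0.44 in PomcGFP. The entry of the pathway was read through Hmgcs1, which joins acetyl units ahead of mevalonate. It stood at 10.29, 10.88 and 10.39 in NesGFP, 9.34, 9.27 and 8.64 in kiTbr2GFP, 9.80, 9.16 and 9.14 in tgTbr2GFP and 9.60 and 9.40 in PomcGFP. The lowest NesGFP array lay above the highest of the others. By limma the differences were -1.43 (adjusted p = 0.000416), -1.15 (adjusted p = 0.00201) and -1.02 (adjusted p = 0.00913), and the last lost its call without the second PomcGFP array (adjusted p = 0.0766).

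The mevalonate kinases and the decarboxylase come next. Mvk, the first kinase, was at 8.55, 7.57 and 7.42 in NesGFP, 7.31, 7.41 and 7.41 in kiTbr2GFP, 7.09, 7.29 and 7.39 in tgTbr2GFP and 7.40 and 7.41 in PomcGFP. Its first NesGFP array was high and the other two lay just above the rest, and its differences of -0.47, -0.59 and -0.44 passed in no line (adjusted p = 0.124, 0.0654 and 0.206 by limma). Without the high first NesGFP array the differences were -0.12, -0.24 and -0.09 (adjusted p = 0.456, 0.153 and 0.630). Without the third NesGFP array the kiTbr2GFP and tgTbr2GFP differences passed (-0.69 and -0.80, adjusted p = 0.0269 and 0.0137). The tgTbr2GFP difference also passed without the second NesGFP array (-0.73, adjusted p = 0.0454) and with array weights (-0.59, adjusted p = 0.0327). With each array centred on its median it passed too (-0.65, adjusted p = 0.0496). Pmvk, the second kinase, differed by -1.07, -0.97 and -0.99 in kiTbr2GFP, tgTbr2GFP and PomcGFP, and Mvd, the decarboxylase, by -1.18, -1.12 and -1.17.

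Idi1 interconverts the isoprene units from which longer chains are built. It read 7.81, 8.80 and 8.65 in NesGFP, 6.70, 6.95 and 6.50 in kiTbr2GFP, 7.18, 6.74 and 5.91 in tgTbr2GFP and 6.67 and 6.64 in PomcGFP. The first NesGFP array was the low one of its line and still lay above all others. Its differences were -1.70, -1.81 and -1.76 (adjusted p = 0.000935, 0.00068 and 0.00191 by limma). The third tgTbr2GFP array was below the 25th percentile of that array (6.18), so the size there is imprecise. A second probe set of Idi1 had means of 8.05 in NesGFP and 6.31, 6.25 and 6.27 in kiTbr2GFP, tgTbr2GFP and PomcGFP.

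Fdps joins isoprene units to farnesyl diphosphate, and Fdft1 joins a pair of these to squalene. Fdps differed by -1.36, -1.23 and -1.12 in kiTbr2GFP, tgTbr2GFP and PomcGFP and Fdft1 by -1.30, -1.32 and -1.40, all called. Fdft1 had a second probe set, with means of 9.48 in NesGFP and 7.75, 7.83 and 7.51 in the other lines in that order. Sqle, the squalene epoxidase and a control point of the pathway, was at 10.65, 10.63 and 10.37 in NesGFP, 9.12, 9.12 and 8.93 in kiTbr2GFP, 9.25, 9.05 and 8.69 in tgTbr2GFP and 9.01 and 8.53 in PomcGFP. All 8 arrays of the other lines lay more than 1 log2 unit below the lowest NesGFP array. The differences of Sqle were -1.49 ± 0.17 (SE), -1.55 ± 0.17 (SE) and -1.78 ± 0.19 (SE), with limma adjusted p of 2.7e-05, 2.35e-05 and 2.68e-05.

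The enzymes that close the ring and trim lanosterol to cholesterol were lower too. Lss, the cyclase, had one of the smaller differences, -0.60, -0.65 and -0.70, and its PomcGFP call ended without either PomcGFP array (adjusted p = 0.0691 and 0.0657). The lanosterol demethylase Cyp51 differed by -1.05, -1.23 and -1.11, and the sterol reductase Tm7sf2 by -0.61, -0.85 and -0.57. In a fit of PomcGFP and NesGFP alone the PomcGFP call of Tm7sf2 was lost (adjusted p = 0.0759 by limma). Hsd17b7, a sterol ketone reductase, differed by -1.08, -0.86 and -1.18, Sc5d, a desaturase, by -1.36, -1.35 and -1.17 and Dhcr7, which makes the final reduction of one branch, by -1.31, -1.37 and -1.41. Of the enzymes named in these sentences each was called in all 3 lines; the PomcGFP call of Tm7sf2 ended without either PomcGFP array (adjusted p = 0.0534 and 0.0655).

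Of the enzymes from Lss onward, Ebp had the largest difference in each line, and Nsdhl the next largest in both Tbr2 lines but not in PomcGFP, where that of Dhcr7 was larger. Nsdhl, a sterol dehydrogenase, was at 10.34, 10.58 and 10.43 in NesGFP, 9.03, 9.09 and 7.89 in kiTbr2GFP, 9.30, 8.80 and 8.14 in tgTbr2GFP and 9.10 and 9.10 in PomcGFP. In both Tbr2 lines the third array was the lowest. Ebp, the sterol isomerase, stood at 8.75, 8.96 and 8.43 in NesGFP, 6.80, 7.11 and 6.52 in kiTbr2GFP, 7.12, 7.14 and 6.55 in tgTbr2GFP and 7.48 and 6.45 in PomcGFP. For both genes the groups did not overlap with NesGFP. Nsdhl differed by -1.78, -1.70 and -1.35 and Ebp by -1.90, -1.78 and -1.74, all called; the PomcGFP call of Nsdhl ended without either PomcGFP array (adjusted p = 0.0592 and 0.0625 in limma).

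All 5 regulators were called lower in kiTbr2GFP, tgTbr2GFP and PomcGFP, beside 27%, 25.8% and 24% of all genes. Srebf2, the sterol pathway's transcription factor, was at 9.28, 9.22 and 9.06 in NesGFP, 7.88, 7.92 and 7.80 in kiTbr2GFP, 7.79, 8.03 and 7.88 in tgTbr2GFP and 8.06 and 8.03 in PomcGFP. Arrays of a line lay close together and those of NesGFP far above. The differences were -1.32 ± 0.11 (SE), -1.29 ± 0.11 (SE) and -1.15 ± 0.12 (SE), with limma adjusted p of 2.11e-06, 3.19e-06 and 2.24e-05. Srebf1, its counterpart for fatty acid genes, was at 7.68, 7.75 and 7.52 in NesGFP, 7.20, 7.33 and 7.33 in kiTbr2GFP, 7.14, 7.21 and 7.33 in tgTbr2GFP and 7.30 and 7.34 in PomcGFP. Its differences were -0.36, -0.42 and -0.33 (adjusted p = 0.0144, 0.00671 and 0.0442 by limma). In PomcGFP the call was lost with the replicate number as a block (adjusted p = 0.0517 by limma). It was also lost in a fit of PomcGFP and NesGFP alone (adjusted p = 0.128 by limma). The PomcGFP call of Srebf1 ended without any of 7 arrays (the second and the third of kiTbr2GFP, the first and the second of NesGFP, the second of tgTbr2GFP and either of PomcGFP; adjusted p = 0.0583 to 0.179).

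Scap, the escort of these factors, was at 8.87, 8.59 and 8.51 in NesGFP, 7.87, 7.88 and 7.86 in kiTbr2GFP, 7.77, 7.93 and 7.83 in tgTbr2GFP and 7.99 and 7.87 in PomcGFP. Insig1, which retains Scap and is itself a target of the pathway, was at 9.69, 9.96 and 10.31 in NesGFP, 8.77, 9.01 and 8.86 in kiTbr2GFP, 9.12, 9.01 and 9.35 in tgTbr2GFP and 8.87 and 8.78 in PomcGFP. Neither gene's NesGFP arrays overlapped with the others. Scap differed by -0.79, -0.81 and -0.73 and Insig1 by -1.11, -0.83 and -1.16, all called. The activator, its escort and its inhibitor were all lower than in NesGFP.

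Thrsp encodes a thyroid hormone responsive protein that promotes lipid synthesis, and was the one member called between the other lines. It was at 10.85, 11.05 and 10.89 in NesGFP, 9.66, 9.82 and 9.81 in kiTbr2GFP, 9.65, 9.71 and 10.002 in tgTbr2GFP and 9.25 and 8.98 in PomcGFP. Both PomcGFP arrays lay below all others and the NesGFP arrays above all others. Against NesGFP the differences were -1.16, -1.14 and -1.81 (adjusted p = 2.02e-05, 2.86e-05 and 3.42e-06 by limma). The difference was -0.65 ± 0.14 (SE; adjusted p = 0.0218, 95% interval -0.96 to -0.34) for PomcGFP minus kiTbr2GFP and -0.67 ± 0.14 (SE; adjusted p = 0.0423, 95% interval -0.99 to -0.36) for PomcGFP minus tgTbr2GFP in limma. The first of these calls ended without the second or the third kiTbr2GFP array or either PomcGFP array (adjusted p = 0.0546 to 0.239). The other call ended without any of 7 arrays, those of kiTbr2GFP and PomcGFP and the second and the third of tgTbr2GFP (adjusted p = 0.0629 to 0.371).

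**Figure D2:**
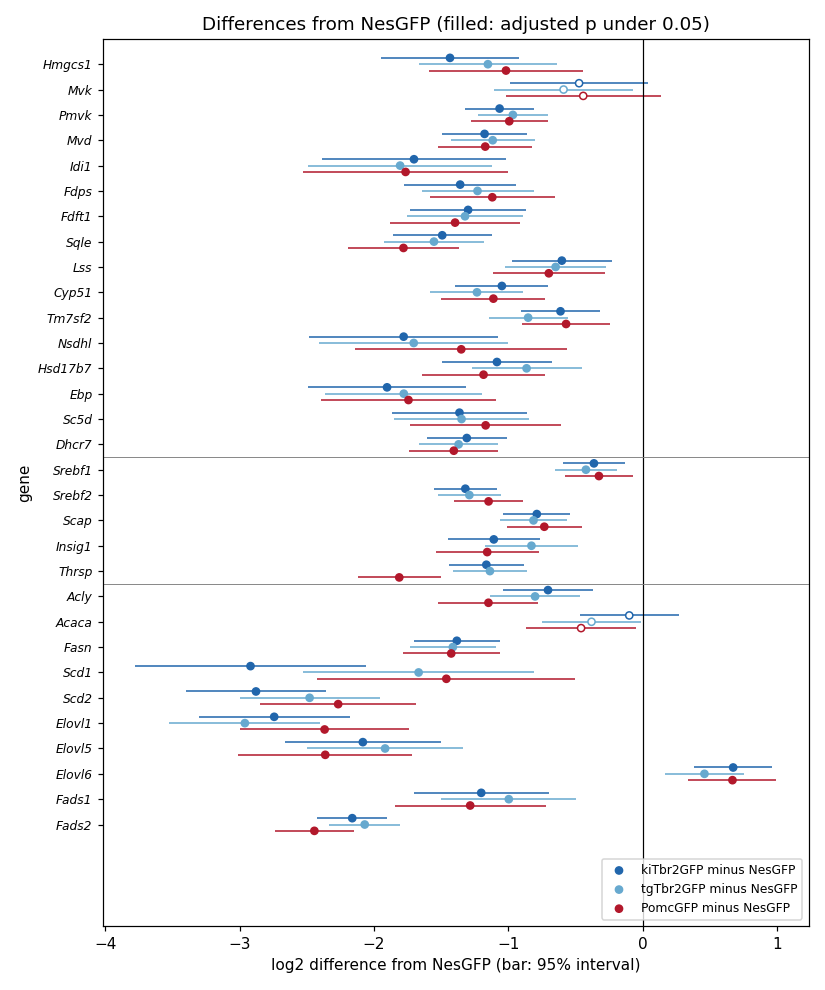
Points give the log2 difference of kiTbr2GFP, tgTbr2GFP and PomcGFP (colours) from NesGFP for each of the 31 genes, with 95% intervals from limma; filled points passed at an adjusted p under 0.05. Points lie left of 0 except those of Elovl6, and the open points are those of Mvk and Acaca.

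Among the fatty acid enzymes 8 of 10 were called lower in each line, Elovl6 was called higher in each and Acaca was called in none. Of all genes 27%, 25.8% and 24% were called lower in kiTbr2GFP, tgTbr2GFP and PomcGFP and 18.2%, 15.8% and 15.9% higher. The medians of the 10 were -1.73, -1.54 and -1.44 in kiTbr2GFP, tgTbr2GFP and PomcGFP. The first steps of the pathway were split. Acly, which frees acetyl-CoA from citrate, differed by -0.70, -0.80 and -1.15, and Fasn, the synthase, by -1.38, -1.41 and -1.43, all called. Fasn was at 9.57, 9.76 and 9.12 in NesGFP, 8.15, 8.17 and 7.99 in kiTbr2GFP, 8.05, 8.07 and 8.09 in tgTbr2GFP and 8.04 and 8.07 in PomcGFP. The 8 arrays of the other lines lay between 7.99 and 8.17.

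Acaca, the carboxylase between these enzymes that makes malonyl-CoA, overlapped between lines. It was at 8.87, 9.22 and 9.27 in NesGFP, 9.06, 9.001 and 9.01 in kiTbr2GFP, 8.92, 8.83 and 8.47 in tgTbr2GFP and 8.92 and 8.40 in PomcGFP. The differences were -0.10 (95% interval -0.47 to 0.27), -0.38 (-0.75 to -0.02) and -0.46 (-0.87 to -0.05), with limma adjusted p of 0.656, 0.0918 and 0.0739. A second probe set of Acaca went the other way, with means of 8.08 in NesGFP and 8.17, 8.20 and 8.31 in kiTbr2GFP, tgTbr2GFP and PomcGFP. Under cyclic loess scaling the kiTbr2GFP difference was 0.061, and without the first NesGFP array the other 2 were -0.51 (adjusted p = 0.0398) and -0.58 (adjusted p = 0.0331). With each array centred on its median the PomcGFP difference passed (-0.55, adjusted p = 0.0433 by limma). The PomcGFP difference was -0.72 without the first PomcGFP array (adjusted p = 0.0292) and -0.20 without the second (adjusted p = 0.543).

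The desaturases and elongases held the largest differences of the 31 genes. Scd2, a stearoyl-CoA desaturase that is the main form in brain, was at 11.59, 11.63 and 11.47 in NesGFP, 8.77, 8.79 and 8.50 in kiTbr2GFP, 9.77, 8.79 and 8.70 in tgTbr2GFP and 9.46 and 9.14 in PomcGFP. The NesGFP arrays stood well clear, and the first tgTbr2GFP array was the highest of the rest. The level was 7.35-fold higher in NesGFP than in kiTbr2GFP, 5.58-fold higher than in tgTbr2GFP and 4.81-fold higher than in PomcGFP (differences -2.88 ± 0.24, -2.48 ± 0.24 and -2.27 ± 0.26 SE; adjusted p = 2.57e-06, 9.65e-06 and 5.43e-05 by limma).

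Scd1, the desaturase of liver and fat, was at 9.57, 9.56 and 9.59 in NesGFP, 6.55, 7.42 and 6.01 in kiTbr2GFP, 8.81, 7.13 and 7.79 in tgTbr2GFP and 8.11 and 8.11 in PomcGFP. Its NesGFP arrays were close together while kiTbr2GFP and tgTbr2GFP arrays spread over more than 1 unit each. The values of both PomcGFP arrays were identical, as for 2.80% of all genes between these arrays and 0.466% to 3.27% over all pairs of arrays. Against NesGFP the differences were -2.92 ± 0.39 (SE), -1.67 ± 0.39 (SE) and -1.46 ± 0.44 (SE), with limma adjusted p of 9.93e-05, 0.00496 and 0.0201. The third kiTbr2GFP array was below the 25th percentile of that array (6.20), so the size there is imprecise. The PomcGFP call ended without either PomcGFP array (adjusted p = 0.0889 and 0.0917) and with array weights (adjusted p = 0.0759).

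Fads1 and Fads2 desaturate polyunsaturated fatty acids. Fads2 was at 11.16, 11.06 and 10.98 in NesGFP, 8.89, 9.04 and 8.79 in kiTbr2GFP, 9.15, 9.04 and 8.80 in tgTbr2GFP and 8.60 and 8.65 in PomcGFP. It had small spread in every line, and its differences of -2.16 ± 0.11 (SE), -2.07 ± 0.11 (SE) and -2.44 ± 0.12 (SE) had the smallest limma adjusted p of the members (2.02e-07, 3.98e-07 and 5.73e-07). Fads1 differed by -1.20, -0.996 and -1.28, all called.

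Of the elongases, Elovl1 makes very long saturated chains, Elovl5 lengthens polyunsaturated ones and Elovl6 takes palmitate to stearate. Elovl1 was at 10.81, 11.17 and 10.88 in NesGFP, 8.43, 8.31 and 7.90 in kiTbr2GFP, 8.70, 7.70 and 7.59 in tgTbr2GFP and 8.59 and 8.59 in PomcGFP, again the same value on both PomcGFP arrays. The level was 6.69-fold, 7.79-fold and 5.16-fold higher in NesGFP (differences -2.74, -2.96 and -2.37; adjusted p = 6.49e-06, 4.72e-06 and 6.81e-05 by limma). Elovl5 was at 10.90, 10.09 and 10.49 in NesGFP, 8.64, 8.41 and 8.18 in kiTbr2GFP, 9.18, 8.36 and 8.18 in tgTbr2GFP and 7.96 and 8.30 in PomcGFP. Both genes left a gap between NesGFP and the rest, with the first tgTbr2GFP array nearest to it. Elovl5 differed by -2.08, -1.92 and -2.36, all called.

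Elovl6 was the exception. It was at 8.72, 8.56 and 8.47 in NesGFP, 9.48, 9.22 and 9.08 in kiTbr2GFP, 9.14, 9.03 and 8.98 in tgTbr2GFP and 9.41 and 9.10 in PomcGFP. All 8 arrays of the other lines lay above the highest NesGFP array, as they did for 14.6% of all genes. The differences were 0.67 ± 0.13 (SE; adjusted p = 0.0016), 0.46 ± 0.13 (SE; adjusted p = 0.016) and 0.67 ± 0.15 (SE; adjusted p = 0.00407) in limma. The tgTbr2GFP call ended when arrays were centred on their medians (0.40, adjusted p = 0.0531) and without the first tgTbr2GFP array (0.41, adjusted p = 0.0566), and the PomcGFP call without the first PomcGFP array (0.52, adjusted p = 0.0605).

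**Figure D3:**
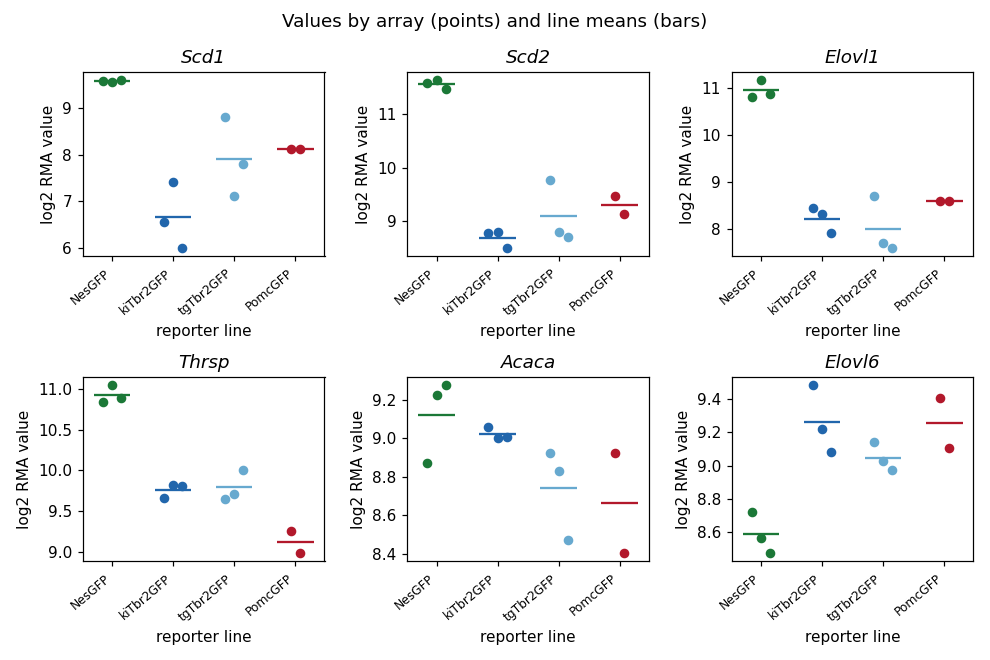
Points are the log2 values of Scd1, Scd2, Elovl1, Thrsp, Acaca and Elovl6 on each array, with bars at the means of the 4 lines. Scd1, Scd2, Elovl1 and Thrsp are highest on the NesGFP arrays, Acaca overlaps and Elovl6 is lowest there; each panel has its own scale, which does not start at 0.

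Among kiTbr2GFP, tgTbr2GFP and PomcGFP the lipid genes gave few calls. Thrsp was the single call of PomcGFP against kiTbr2GFP, where 4.88% of all genes were called, 1.98% lower and 2.9% higher, and of PomcGFP against tgTbr2GFP (1.37% of all genes, 0.823% lower and 0.545% higher). Between kiTbr2GFP and tgTbr2GFP 0 of 31 genes were called by limma (1.12% of all genes were, 0.436% higher and 0.684% lower), and 1 had an unadjusted p under 0.05. With array weights these 3 comparisons gave 3, 1 and 1 calls, when the share of all genes called was higher too: 3 lower for PomcGFP against kiTbr2GFP (5.69% of all genes), 1 lower for PomcGFP against tgTbr2GFP (3.55%) and 1 higher for kiTbr2GFP against tgTbr2GFP (3.39%). Arrays of PomcGFP and kiTbr2GFP did not overlap for 7 genes higher in PomcGFP (18.1% of all genes) and 5 lower (15.8%). For PomcGFP and tgTbr2GFP these were 3 (15.9%) and 4 (13%), and for kiTbr2GFP and tgTbr2GFP 2 higher in kiTbr2GFP (7.78%) and 0 lower (9.38%). A p above the threshold does not show that the levels were alike. The interval of Fasn, for instance, ran from -0.29 to 0.35 for kiTbr2GFP minus tgTbr2GFP and from -0.40 to 0.32 for PomcGFP minus kiTbr2GFP, and that of Srebf2 from -0.26 to 0.20 and from -0.09 to 0.43.

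Scd1 had wide intervals here. Its PomcGFP arrays were above all kiTbr2GFP arrays, with a difference of 1.46 (95% interval 0.50 to 2.42; adjusted p = 0.0948 by limma), and kiTbr2GFP minus tgTbr2GFP was -1.25 (-2.11 to -0.39; adjusted p = 0.225). The latter was -0.80 without the first tgTbr2GFP array (adjusted p = 0.607), and with array weights the 2 differences were 0.96 (adjusted p = 0.172) and -0.33 (adjusted p = 0.615). PomcGFP minus tgTbr2GFP was 0.21 (-0.75 to 1.17). The difference of PomcGFP minus kiTbr2GFP passed without the second kiTbr2GFP array (1.84, adjusted p = 0.0375) or without the first tgTbr2GFP array (adjusted p = 0.0349). Scd2 was at 0.61 for PomcGFP minus kiTbr2GFP (0.03 to 1.19; adjusted p = 0.310 by limma), and it too passed without the first tgTbr2GFP array (adjusted p = 0.0360). Without that array PomcGFP against kiTbr2GFP had 3 calls, 2 higher (3.12% of all genes) and 1 lower (1.88%). PomcGFP against tgTbr2GFP then had 2 calls, 1 higher (0.865% of all genes) and 1 lower (0.799%). PomcGFP against kiTbr2GFP had 0 calls without the third kiTbr2GFP array or either PomcGFP array, and PomcGFP against tgTbr2GFP had 0 without any of the kiTbr2GFP or PomcGFP arrays or the second or the third tgTbr2GFP array.

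Other genes of the same pathways were listed beside the members. Of 7 further sterol synthesis genes tested, 4 were called lower in kiTbr2GFP, 5 in tgTbr2GFP and 5 in PomcGFP, and 0 higher, beside 27%, 25.8% and 24% of all genes lower. Msmo1, the sterol methyl oxidase that works next to Nsdhl, had larger differences from NesGFP than the members did in kiTbr2GFP, tgTbr2GFP and PomcGFP. It was at 10.89, 10.96 and 10.99 in NesGFP, 7.45, 7.41 and 7.28 in kiTbr2GFP, 8.74, 7.82 and 7.06 in tgTbr2GFP and 7.94 and 8.16 in PomcGFP. Its differences were -3.57 ± 0.31 (SE), -3.07 ± 0.31 (SE) and -2.89 ± 0.34 (SE), with limma adjusted p of 3.77e-06, 1.37e-05 and 6.17e-05. Erlin2, an endoplasmic reticulum protein of sterol-regulated degradation, differed by -1.07, -1.16 and -1.48, and the protease gene Mbtps1, whose product cuts SREBPs in the Golgi, by -0.88, -0.94 and -0.94. Stard4, a cholesterol carrier, differed by -0.80, -0.67 and -0.72. Lbr, a sterol reductase of the nuclear envelope, was called in tgTbr2GFP (-0.91) and PomcGFP (-0.67) but not in kiTbr2GFP (-0.10, adjusted p = 0.703). Ggps1 (0.32, 0.33 and 0.22), which makes a longer isoprenoid, and Insig2 (0.20, 0.19 and 0.47) were called in none.

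Of 23 further fatty acid genes tested, 12 were called lower in kiTbr2GFP, 11 in tgTbr2GFP and 11 in PomcGFP, and 1 higher in each; over all genes 27%, 25.8% and 24% were called lower and 18.2%, 15.8% and 15.9% higher. The medians of these 23 were -0.66, -0.68 and -0.62. The elongase Elovl7 was at 10.10, 10.75 and 10.50 in NesGFP, 7.28, 7.78 and 6.67 in kiTbr2GFP, 9.12, 6.83 and 7.32 in tgTbr2GFP and 9.10 and 8.81 in PomcGFP, so the first tgTbr2GFP array was far above its line. It differed by -3.21, -2.69 and -1.50 (adjusted p = 0.000233, 0.000874 and 0.0452 by limma). Me1, which supplies reducing power, differed by -1.96, -1.26 and -1.43, Acss2, which activates acetate, by -1.78, -1.74 and -1.69, and Mid1ip1, the relative of Thrsp, by -1.76, -1.29 and -1.87. Hsd17b12, of the elongation cycle, differed by -1.39, -1.32 and -1.78; all of these were called. The one called higher was Acsl4, which activates arachidonic acid: it was at 7.09, 7.02 and 6.19 in NesGFP, 7.48, 7.61 and 7.49 in kiTbr2GFP, 8.20, 7.91 and 7.52 in tgTbr2GFP and 8.40 and 8.16 in PomcGFP. Its differences were 0.76, 1.11 and 1.51 (adjusted p = 0.0194, 0.00243 and 0.000745 by limma).

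Markers of several other cell types were lower than in NesGFP, as most lipid genes were. Called lower than in NesGFP were 11, 11 and 10 of 11 astrocyte genes in kiTbr2GFP, tgTbr2GFP and PomcGFP, and 11, 11 and 6 of 11 oligodendrocyte genes. In each line so were 8 of 8 oligodendrocyte precursor genes, 9 of 9 endothelial genes and 9 of 9 mural cell genes. Cspg4 is in both the precursor and the mural list, so these lists are not fully separate. Over all genes 27%, 25.8% and 24% were called lower in kiTbr2GFP, tgTbr2GFP and PomcGFP. The log2 of the summed oligodendrocyte level was 14.28 to 14.44 on the NesGFP arrays, 10.88 to 11.59 in kiTbr2GFP, 10.95 to 12.90 in tgTbr2GFP and 12.72 to 12.75 in PomcGFP. For astrocyte genes it was 14.16 to 14.33, 12.09 to 12.26, 12.63 to 13.06 and 12.68 to 12.69 in the same order, and for endothelial genes 13.10 to 13.28, 9.40 to 9.76, 9.59 to 10.40 and 10.10 to 10.43. Oligodendrocyte precursor genes summed to 12.60 to 12.83, 10.27 to 10.55, 10.49 to 10.77 and 10.81 to 10.94, and mural genes to 13.19 to 13.48, 10.24 to 10.27, 10.18 to 10.66 and 10.38 to 11.06. At or below the 25th percentile of an array were up to 4 of 9 endothelial genes in kiTbr2GFP and 3 in tgTbr2GFP, and up to 2 of 11 oligodendrocyte genes in either Tbr2 line. Of 9 mural genes these were up to 3 in kiTbr2GFP and 2 in tgTbr2GFP. In PomcGFP up to 1 endothelial and 1 mural gene lay there, and on the NesGFP arrays 0 genes of these lists. Microglia genes did not follow: 8 tested genes summed to 10.01 to 10.11 in NesGFP and to 9.80 to 9.99, 9.89 to 10.37 and 10.72 to 10.82 in the other lines. Between PomcGFP and kiTbr2GFP few marker genes were called. Higher in PomcGFP were 2 of 11 oligodendrocyte, 2 of 9 endothelial and 2 of 11 astrocyte genes (2.9% of all genes). The median difference, PomcGFP minus kiTbr2GFP, was 1.42 for oligodendrocyte, 0.52 for endothelial and 0.43 for astrocyte genes. It was 0.24 for oligodendrocyte precursor and 0.23 for mural genes, and -0.0051 for the 31 lipid genes. For PomcGFP minus tgTbr2GFP the median was 1.01 for oligodendrocyte, 0.34 for endothelial and -0.10 for astrocyte genes. There it was 0.18 for oligodendrocyte precursor and 0.16 for mural genes, and 0.035 for the 31 lipid genes. The part of these cell types in the differences of lipid genes was not tested.

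**Figure D4:**
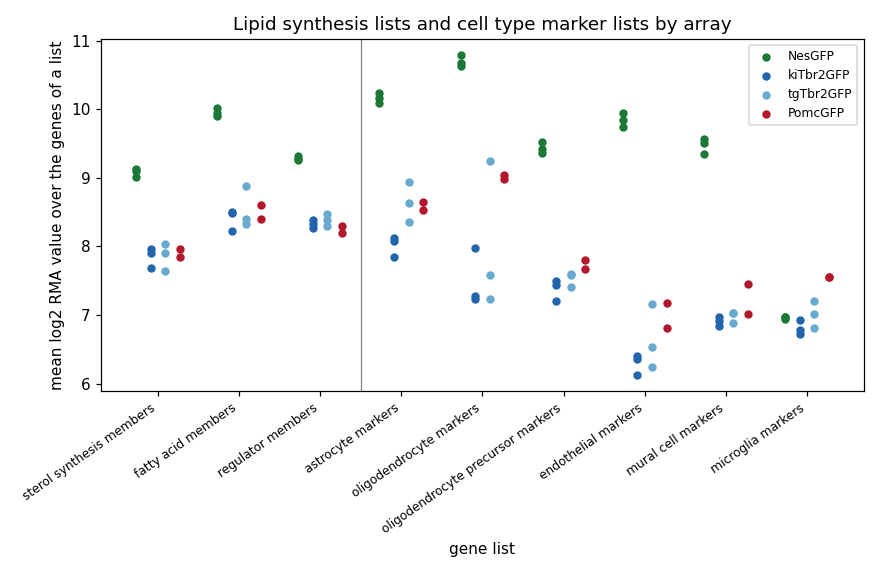
Each point is the mean log2 value over the genes of a list on 1 array, coloured by line, for the 3 lists of lipid genes and 6 lists of cell type markers. The sterol, fatty acid and regulator lists are highest on the NesGFP arrays, as are the astrocyte, oligodendrocyte, precursor, endothelial and mural lists, while microglia genes are not.

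Within tgTbr2GFP, many lipid, oligodendrocyte, astrocyte and endothelial genes were highest on the same array. The first tgTbr2GFP array was the highest of its 3 for 19 of 31 lipid genes (26% of all genes), and for 8 of 10 fatty acid enzymes, 11 of 16 sterol enzymes and 0 of 5 regulators. It was also the highest of the 3 for 11 of 11 oligodendrocyte genes, 9 of 9 endothelial and 8 of 11 astrocyte genes. It was so for 6 of 8 microglia and 4 of 8 oligodendrocyte precursor genes too, but for only 2 of 9 mural genes. It was the highest of all 8 arrays outside NesGFP for 13 of 31 lipid genes (8.54% of all genes), 7 of 11 oligodendrocyte and 7 of 11 astrocyte genes. The same held for 4 of 9 endothelial and 2 of 8 oligodendrocyte precursor genes, and for 0 mural and 0 microglia genes. The myelin genes Mag and Opalin were at 8.90 and 8.70 on it, against 6.71 and 6.96, and 5.57 and 6.19, on the other tgTbr2GFP arrays. The part of any of these cell types in the lipid values of this array was not tested. Without the first tgTbr2GFP array the tgTbr2GFP differences from NesGFP were -2.12 for Scd1, -2.82 for Scd2 and -3.31 for Elovl1. Then 28 members were called lower (22.3% of all genes) and 0 higher (14.3%).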

How the data were processed

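The authors deposited 1 table of log2 values per probe set and array, made with RMA (oligo), as the submitters' processing notes state; versions, the probe annotation used and any pooling are not given in the sources used here. That these are log2 units was inferred from RMA and from their range. Low values are compressed by RMA, so differences near the 25th percentile of an array (5.90 to 6.20) are imprecise, and the number of arrays limits the precision.

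Of 28858 probe sets 21789 had 1 gene symbol, 1621 several and 5448 none listed; those with 1 were used (19938 genes). Genes above the 25th percentile on at least 2 arrays were kept (16527), with the highest-mean probe set per gene. One mean per line was fitted over the 11 arrays in limma 3.58.1 (R 4.3.3; 7 residual and 4.22 prior degrees of freedom), so that the 2 PomcGFP arrays share the spread of the other lines. The 6 pairwise comparisons and an F test were two-sided where directed, with Benjamini-Hochberg adjustment over all genes and a threshold of 0.05. Values are given on every array for the 12 largest differences, the regulators and members without a uniform call. In simulated data of 16527 genes with independent normal noise, 200 genes were changed by 1 log2 unit in 1 line. Against NesGFP the change was recovered for 94% of these in kiTbr2GFP, 91% in tgTbr2GFP and 79.5% in PomcGFP. It was recovered for 81.5% (PomcGFP against kiTbr2GFP), 83.5% (PomcGFP against tgTbr2GFP) and 88.5% (kiTbr2GFP against tgTbr2GFP). Of the calls 0.625% to 6.7% were false. Far fewer genes were changed than were called against NesGFP in the data, so recovery there can differ. The members, gene lists and tests were chosen with earlier results of these data known. Alternatives were other filters, the mean of probe sets, cyclic loess, median centring, a robust prior with an intensity trend, array weights, a replicate block, a fit of the compared lines and leaving out each array. Tables used Python 3.11.15 with pandas 2.3.3 and matplotlib 3.10.9.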

Additional observations from a re-analysis of the deposited data

How the results depend on the processing

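Against NesGFP the counts of called lipid genes (29 of 31 in each line) stayed within 1.5 times under every alternative run. Leaving out 1 array gave 29 to 30 calls for kiTbr2GFP, 28 to 30 for tgTbr2GFP and 27 to 29 in the F test. For PomcGFP it gave 28 to 29 where the array was of another line. Of all genes 23.5% to 28.8%, 22.3% to 27.5% and 22.5% to 26.6% were then called lower in kiTbr2GFP, tgTbr2GFP and PomcGFP. Without either PomcGFP array fewer members, and fewer of all genes, were called in PomcGFP. The median differences of the members there were -1.26 without the first and -1.12 without the second. Among the other lines leaving out 1 array gave 0 to 3 calls for PomcGFP against kiTbr2GFP, 0 to 2 for PomcGFP against tgTbr2GFP and 0 to 0 for kiTbr2GFP against tgTbr2GFP. Where 1 PomcGFP array remains, it is assumed to vary like the other lines. PomcGFP against tgTbr2GFP had 0 calls with cyclic loess and in a fit of the compared lines. With array weights PomcGFP against kiTbr2GFP had 3 and kiTbr2GFP against tgTbr2GFP 1. Signs turned for differences that passed no test: Acaca in kiTbr2GFP against NesGFP (0.061 with cyclic loess), Scd1 in PomcGFP against tgTbr2GFP (-0.18 without the second tgTbr2GFP array, with a range of -0.18 to 0.66 over arrays left out) and Thrsp in kiTbr2GFP against tgTbr2GFP (0.044 with array weights, 0.025 without the first kiTbr2GFP array and 0.079 without the third tgTbr2GFP array, with a range of -0.095 to 0.079 over arrays left out). The cause was not tested.

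Same-numbered arrays deviated from their line means at r of -0.11 to 0.26, over 0.1 in the 3 pairs of arrays numbered 3 (0.13 to 0.26) but not in most pairs numbered 1 or 2, so a number was not taken to pair arrays. With the replicate number as a block, PomcGFP against kiTbr2GFP and against tgTbr2GFP had 0 calls each, and PomcGFP against NesGFP had 28.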

Other observations

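Genes that carry, store or break down cholesterol went partly with those that make it. Of 17 tested, 11 were called lower than in NesGFP in kiTbr2GFP, 9 in tgTbr2GFP and 7 in PomcGFP, beside 27%, 25.8% and 24% of all genes; Abca1, a sterol exporter, was called higher in tgTbr2GFP (0.31). Pltp, which transfers phospholipid between lipoproteins, was at 11.46, 11.27 and 11.23 in NesGFP, 7.41, 7.62 and 7.84 in kiTbr2GFP, 8.29, 8.07 and 8.19 in tgTbr2GFP and 8.16 and 8.28 in PomcGFP. Its differences were -3.70, -3.14 and -3.10 (adjusted p = 5.46e-08, 1.21e-07 and 5.19e-07 by limma). Lcat, which esterifies lipoprotein cholesterol, differed by -3.32, -3.10 and -3.34, and Npc1, which exports cholesterol from lysosomes, by -1.67, -1.64 and -1.68.

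Apoe, the main lipoprotein component made by brain glia, was at 12.57, 12.50 and 12.51 in NesGFP, 9.98, 9.83 and 9.73 in kiTbr2GFP, 10.93, 10.28 and 10.51 in tgTbr2GFP and 10.50 and 10.51 in PomcGFP. Unlike most synthesis genes it was also called between the other lines. In kiTbr2GFP it lay at -0.73 ± 0.15 (SE; adjusted p = 0.0472) against tgTbr2GFP, and PomcGFP lay at 0.66 ± 0.17 (SE; adjusted p = 0.0498) against kiTbr2GFP in limma. Astrocyte markers were also lowest in kiTbr2GFP, with 3 of 11 called lower than in tgTbr2GFP (0.684% of all genes were). Their part in the level of Apoe was not tested.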
